A study of Mus musculus with 71 samples.

Results

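The adipogenic transcription factors described here are Pparg, Ppard, Rxra, Cebpa, Cebpb, Cebpd, Ebf1, Gata2 and Stat5a, 9 genes taken by name. Every probe set annotated to exactly 1 gene, that gene being 1 of the 9, was included, which gave 16 of the 22626 probe sets and 9 of the 12393 genes on the arrays. Fat cells made from the murine lines 3T3-L1 and C3H/10T1/2 had received 1 µM rosiglitazone (RSG) or the vehicle DMSO, and RNA was taken at 6 times (1, 2, 4, 7 and 24 hrs, and 48 hrs). 3T3-L1 and C3H/10T1/2 are fibroblast-like mouse cell lines that turn into fat cells in culture, and RSG is an agonist of PPARγ. All cells, the DMSO controls included, had met RSG earlier. The first differentiation medium of 3T3-L1 held 100 nM RSG, beside insulin, 3-isobutyl-1-methylxanthine and dexamethasone. The 3T3-L1 media that followed, with insulin and then without, held no RSG. C3H/10T1/2 cells had 10 µM RSG, beside insulin, for the whole of their differentiation. A washout of 24 hrs came before the treatment of both, so 3T3-L1 had been without RSG for longer. Each of the 24 groups held 3 arrays, from 3 batches of differentiated cells, except 3T3-L1 with DMSO for 2 hrs, which held 2. Values are linear MAS 5.0 signals. They are set side by side only for 1 probe set at a time, because probe sets bind with different strength.

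Fat cell formation runs as a cascade of transcription factors. CEBPB and CEBPD act early and switch on PPARG and CEBPA, which keep each other on and drive the genes of the mature fat cell. PPARG binds DNA as a pair with RXRA, EBF1 and STAT5A support the program, and GATA2 is known for holding preadipocytes back. PPARD is the widely expressed relative of PPARG.

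The DNA before the starts of 2 of these genes is shown first, because Pparg was lower and Cebpb higher with RSG in the results that follow. RefSeq on build GRCm38.p6 gave 14 starts for 8 of the 9 genes, and for Cebpd there was no entry in the table used. The 250 bases before each start were searched on both strands. Capitals mark GGGCGG (the GC box bound by SP1) and TTGCNNAA (bound by C/EBP proteins). A match on the minus strand shows as its reverse complement.
Pparg start 1, chr6:115360894-115361143, plus strand: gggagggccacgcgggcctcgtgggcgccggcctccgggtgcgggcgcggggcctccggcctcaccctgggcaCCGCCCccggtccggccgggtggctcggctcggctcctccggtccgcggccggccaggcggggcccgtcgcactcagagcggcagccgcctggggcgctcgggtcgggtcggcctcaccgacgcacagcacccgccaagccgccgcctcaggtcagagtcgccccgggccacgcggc
Pparg start 2, chr6:115362099-115362348, plus strand: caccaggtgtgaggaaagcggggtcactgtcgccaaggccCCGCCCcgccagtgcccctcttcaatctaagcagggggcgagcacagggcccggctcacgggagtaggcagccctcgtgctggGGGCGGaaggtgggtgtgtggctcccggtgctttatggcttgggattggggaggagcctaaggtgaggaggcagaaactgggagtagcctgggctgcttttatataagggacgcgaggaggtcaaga
Pparg start 3, chr6:115421816-115422065, plus strand: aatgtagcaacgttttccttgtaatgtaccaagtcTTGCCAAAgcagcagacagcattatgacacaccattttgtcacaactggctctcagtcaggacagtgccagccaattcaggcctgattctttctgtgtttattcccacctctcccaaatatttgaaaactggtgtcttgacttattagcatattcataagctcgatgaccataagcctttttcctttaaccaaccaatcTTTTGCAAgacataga
Cebpb start, chr2:167688665-167688914, plus strand: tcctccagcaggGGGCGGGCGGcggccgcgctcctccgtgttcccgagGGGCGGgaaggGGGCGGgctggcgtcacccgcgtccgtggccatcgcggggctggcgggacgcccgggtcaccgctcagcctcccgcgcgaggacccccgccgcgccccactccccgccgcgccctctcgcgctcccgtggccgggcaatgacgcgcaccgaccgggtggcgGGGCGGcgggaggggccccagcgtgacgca

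The third Pparg start was the only 1 of the 14 with a C/EBP match, and it had 2, whose first bases lay 215 and 16 bases before the start. The motif occurs in 9.56% of the 32851 mouse promoters of the same length. This stretch had 40.8% G and C, against 82.4% and 63.6% before the first and second Pparg starts, which held 1 and 2 GC boxes. The GC box was found in 8 of the 14 stretches and in 32.7% of all promoters. The Cebpb stretch held 5 of them, and the first 2 overlap. The STAT motif TTCNNNGAA, the GATA motifs AGATAA and TGATAA, the cAMP response element TGACGTCA and the E-box CACGTG occurred in 0 of the 14, against 7.02%, 9.99%, 7.94%, 1.55% and 6.02% of all promoters. The element of PPAR and RXR pairs, 2 copies of AGGTCA with 1 base between them, was in 0 of the 14 and in 0.0335% of all. Which start was in use was not measured, and a match of letters is not a bound site.

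Of the 16 probe sets, 14 from 8 genes reached the presence level of 19.9 in at least 1 group mean of each cell type and were tested. The Ppard probe set, 1425703_at, gave signals of 1.0 to 4.7 on all 71 arrays, so it has only an upper bound here. The same holds for Gata2 1428816_a_at in C3H/10T1/2 adipocytes, at 0.8 to 13.5 with RSG and 0.9 to 12.1 with DMSO, and in 3T3-L1 adipocytes it was under 19.9 on 17 of 18 RSG arrays and 14 of 17 DMSO arrays. Array medians ran from 50.2 to 64.2 (3T3-L1) and from 38.2 to 46.9 (C3H/10T1/2). All 9 adipocyte marker genes on the arrays were present in both cell types. Of the 6 macrophage markers, Ptprc and Itgam were under the presence level.

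At 1 hr of RSG 0 member probe sets were called in either cell type. In 3T3-L1 adipocytes the calls were 1 of 14 at 2 hrs (Pparg), 1 at 4 hrs (Pparg), 2 at 7 hrs (Pparg and Cebpd), 3 at 24 hrs (Pparg, Rxra and Cebpb) and 6 at 48 hrs (Pparg, Rxra, Ebf1, Stat5a and both probe sets of Cebpb). A call is an adjusted p under 0.05, with p values adjusted over all tested probe sets. The fits did not use the replicate numbers of the arrays. The share of all probe sets called was 0.0666% at 1 hr, 0.172% at 2 hrs, 0.716% at 4 hrs, 2.04% at 7 hrs, 11.8% at 24 hrs and 14.3% at 48 hrs, against member shares of 7.14%, 7.14%, 14.3%, 21.4% and 42.9% from 2 hrs on. For C3H/10T1/2 adipocytes 1 member probe set was called at 2 hrs (Pparg), 7 hrs (Pparg), 24 hrs (Rxra) and 48 hrs (Pparg), and 0 at 4 hrs. There the background was 0.0434%, 0.229%, 0.763%, 2.85%, 7.72% and 5.41% from 1 to 48 hrs, so the 7.14% at 24 and 48 hrs was close to it. Where 0 were called, 2 (1 hr, both cell types) and 3 (4 hrs, C3H/10T1/2) had an unadjusted p under 0.05, beside 757 of 18028 (3T3-L1, 1 hr), 527 of 16123 (C3H/10T1/2, 1 hr) and 1340 of 16123 (C3H/10T1/2, 4 hrs) over all probe sets. The methods' own test, without adjustment, called 2, 2 and 3 there, and 4.14%, 3.08% and 7.94% of all probe sets. The RSG and DMSO arrays did not overlap for 7.77%, 19.3%, 12.3%, 18.4%, 28.2% and 25.2% of all probe sets from 1 to 48 hrs in 3T3-L1. In C3H/10T1/2 the shares were 6.69%, 9.84%, 12.7%, 18.8%, 23.6% and 19.3%. Separate arrays are therefore common, and below they are given as a description only.

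**Figure D1:**
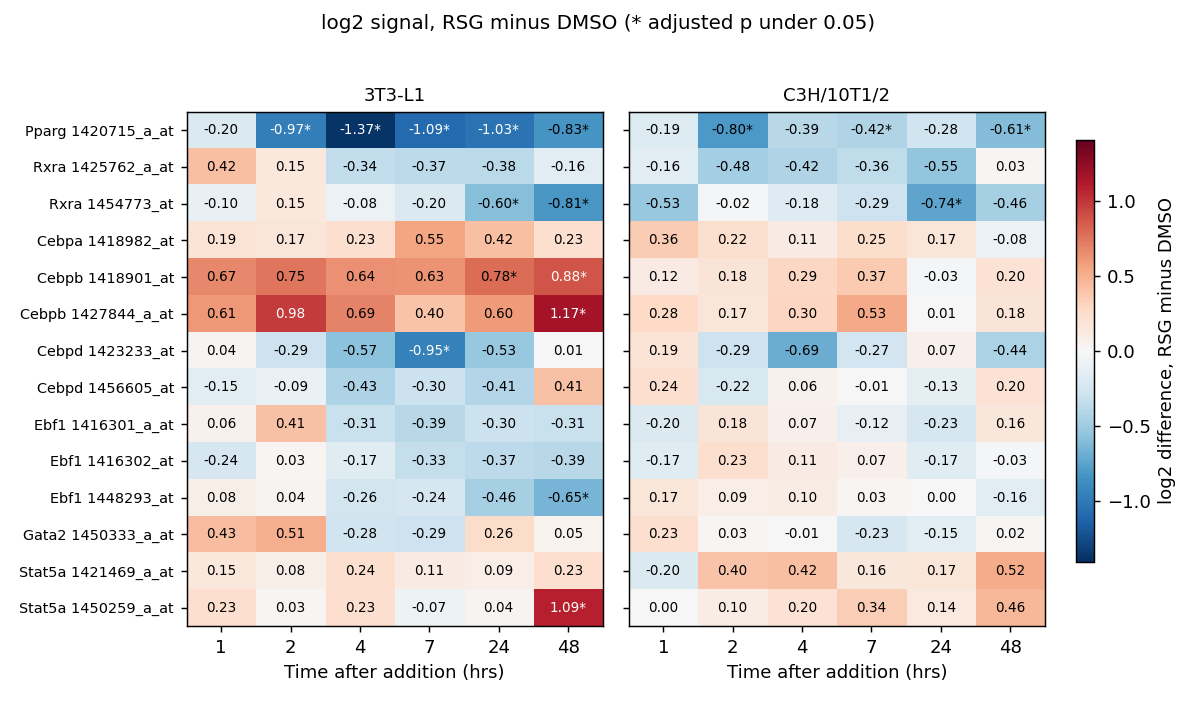
Differences in log2 signal, RSG minus DMSO, for the 14 tested probe sets (rows) at 6 times (columns, hrs), 3T3-L1 left and C3H/10T1/2 right, with an asterisk where the adjusted p is under 0.05. Pparg is negative in all 12 cells, from -1.37 to -0.19, and both Cebpb probe sets are positive in all 6 cells of 3T3-L1.

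Pparg, the receptor that RSG activates, had less signal with RSG in both cell types from 2 hrs on. It had a single probe set, and which Pparg isoforms that probe set detects was not checked here. At 2 hrs 1420715_a_at read 735, 698.4 and 613.9 with RSG in 3T3-L1 adipocytes, against 1294.4 and 1367.2 with DMSO. The 3 RSG arrays lay below both DMSO arrays, a difference of -0.97 on the log2 scale (SE 0.19, adjusted p = 0.0134). At 4 hrs it read 669.4, 493.4 and 610.6 with RSG and 1830, 1508.1 and 1273.8 with DMSO. This was the largest of its 6 differences in 3T3-L1, -1.37 (SE 0.17, adjusted p = 1.48e-05) or 2.59-fold. The signal stayed low afterwards, at 705 to 1042.2, 598.3 to 1033.2 and 859.5 to 947.7 with RSG at 7, 24 and 48 hrs, against 1608.2 to 1839.4, 1378.5 to 1961 and 1381.8 to 1965.5 with DMSO. The differences were -1.09 (adjusted p = 0.000193), -1.03 (adjusted p = 7.88e-05) and -0.83 (adjusted p = 0.000823), each with an SE of 0.17, and no RSG array reached a DMSO array. At 1 hr the arrays were also separate, at 1508.8, 1446.1 and 1472.8 with RSG and 1612, 1741.3 and 1730.8 with DMSO, but the difference of -0.20 (95% interval -0.55 to 0.15) did not pass the test. The arrays of 7.77% of all probe sets were separate at that time. The call at 2 hrs, though not the size of the difference, depended on single arrays. Without RSG replicate 3, DMSO replicate 2 and DMSO replicate 3 the difference was -0.89, -1.01 and -0.93, with adjusted p values of 0.111, 0.108 and 0.264, and a fit of these 2 groups alone gave -0.97 (adjusted p = 0.0877).

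In C3H/10T1/2 adipocytes Pparg had its largest log2 difference at 2 hrs, when it read 381.9, 404.9 and 294.3 with RSG and 633.1, 661.8 and 577.8 with DMSO. The difference was -0.80 (SE 0.12, adjusted p = 0.000189, or 0.107 in a fit of these 2 groups alone). At 48 hrs it read 602.2, 644.4 and 635.6 with RSG and 950.8, 1035.5 and 890.5 with DMSO, a difference of -0.61 (SE 0.12, adjusted p = 0.00108). In between the arrays remained separate while the difference was smaller. It was -0.39 at 4 hrs (613.9 to 709.1 with RSG, 826.8 to 966.1 with DMSO, adjusted p = 0.142), -0.42 at 7 hrs (627.2 to 696 with RSG, 847.3 to 990.9 with DMSO, adjusted p = 0.0427) and -0.28 at 24 hrs (590.4 to 663 with RSG, 715.1 to 800.7 with DMSO, adjusted p = 0.158). The call at 7 hrs was lost when any 1 of its 6 arrays was left out, with adjusted p values of 0.0589 to 0.168. At 1 hr the arrays overlapped (515.4 to 613.7 with RSG, 570.7 to 734.7 with DMSO). The DMSO mean rose from 626.9 at 1 hr to 958.9 at 48 hrs, and the RSG mean of 48 hrs (627.4) was near the DMSO mean of 1 hr. The gap at 48 hrs is thus a lower signal than DMSO at that time, not a fall from the level at 1 hr.

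**Figure D2:**
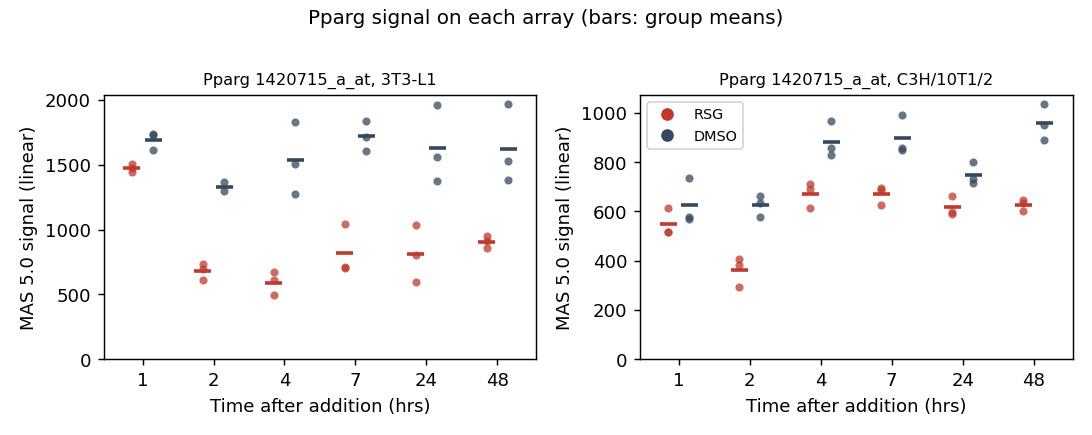
Pparg signal (1420715_a_at, linear MAS 5.0 units from 0) on each array against time in hrs, RSG left of DMSO at each time, with a bar at the group mean. From 2 hrs on every RSG array lies below every DMSO array of its time in both panels, and the linear gap between the means is widest at 4 hrs in 3T3-L1 (591.1 with RSG and 1537 with DMSO) and at 48 hrs in C3H/10T1/2 (627.4 with RSG and 958.9 with DMSO).

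The RSG effect on Pparg differed between 3T3-L1 and C3H/10T1/2 adipocytes by -0.98 at 4 hrs (3T3-L1 minus C3H/10T1/2, 95% interval -1.4 to -0.56), -0.67 at 7 hrs (-1.08 to -0.25) and -0.75 at 24 hrs (-1.16 to -0.33). None of these passed the test of the difference across all probe sets without the replicate block (adjusted p = 0.287, 0.715 and 0.112). With the block, whose numbers were taken to pair arrays in C3H/10T1/2 and not in 3T3-L1, those at 4 and 24 hrs passed (adjusted p = 0.00415 and 0.0111). They also passed after quantile normalization (0.0084 and 0.0194), and that at 24 hrs passed without 3T3-L1 RSG replicate 1 (-0.94, adjusted p = 0.0247). At 2 and 48 hrs the differences of effects were -0.16 (95% interval -0.6 to 0.28) and -0.22 (-0.63 to 0.2). Without the block 0 of the 14 member probe sets passed this test at any of the 6 times, and 1, 2, 1, 1, 2 and 2 had an unadjusted p under 0.05. Over all probe sets it called 0% at 1, 2 and 4 hrs, 0.0164% at 7 hrs, 0.257% at 24 hrs and 0.848% at 48 hrs.

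Rxra, the DNA-binding partner of PPARG, was lower with RSG on 1 of its 2 probe sets, at 24 hrs in both cell types and at 48 hrs in 3T3-L1. At 24 hrs 1454773_at read 123.2, 104.5 and 159.7 with RSG in 3T3-L1, against 210.4, 169.7 and 200.5 with DMSO, and at 48 hrs 144.5, 120.4 and 129 with RSG, against 255.5, 217.9 and 217.2 with DMSO. The RSG arrays lay below the DMSO arrays both times, with differences of -0.60 (SE 0.18, adjusted p = 0.0219) and -0.81 (SE 0.18, adjusted p = 0.00148). The call at 24 hrs was lost without RSG replicate 1, RSG replicate 2, DMSO replicate 1 or DMSO replicate 3 (adjusted p of 0.0783, 0.142, 0.0833 and 0.0825), and after quantile normalization (0.0587). In C3H/10T1/2 the signal at 24 hrs was 95.7, 114.6 and 135.7 with RSG and 194.8, 213.4 and 165.9 with DMSO, a difference of -0.74 (SE 0.15, adjusted p = 0.00228). The DMSO mean there was 116.8 at 1 hr and 191.4 at 24 hrs, and the RSG mean of 24 hrs was 115.3. At 48 hrs the signal was 144.1, 118.7 and 105.7 with RSG and 170.5, 185 and 149.3 with DMSO, and the difference of -0.46 missed the threshold (adjusted p = 0.0782). It passed with the replicate number, which was taken to pair these arrays, as a block (adjusted p = 0.0465) and, at -0.58, without RSG replicate 1 (adjusted p = 0.0427). From 1 to 7 hrs 1454773_at differed by -0.53 to 0.15 in the 8 comparisons, with 0 calls. The second probe set, 1425762_a_at, had 0 calls in 12 comparisons, with differences of -0.38 and -0.16 (3T3-L1) and of -0.55 and 0.03 (C3H/10T1/2) at the last 2 times. Over the 24 group means, with the mean of each cell type removed, the log2 signals of the Rxra probe sets correlated at 0.63.

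Cebpb, one of the factors that starts the cascade, had more signal with RSG in 3T3-L1 adipocytes, a difference that passed the test at 24 and 48 hrs. At 1 hr 1418901_at read 1848.4, 1432.4 and 1390.7 with RSG and 1022.1, 902.5 and 997.1 with DMSO. The RSG arrays lay above the DMSO arrays at all 6 times, where 7.77% to 28.2% of all probe sets had arrays that did not overlap at a single time. The differences were 0.67, 0.75, 0.64, 0.63, 0.78 and 0.88 from 1 to 48 hrs (SE 0.18, or 0.20 at 2 hrs). Those at 24 and 48 hrs passed the test (adjusted p = 0.00392 and 0.000913), and those before had adjusted p values of 0.615, 0.244, 0.118 and 0.0701. The arrays at 24 hrs read 1133.6, 1080.7 and 1550.9 with RSG and 767.3, 692.7 and 710 with DMSO. At 48 hrs they read 1461.7, 913.4 and 1416.5 with RSG and 531.1, 653 and 882.1 with DMSO, where the lowest RSG array lay just above the highest DMSO array. The second probe set, 1427844_a_at, gave 464, 332.4 and 391.3 with RSG and 107.8, 163.4 and 298.5 with DMSO at 48 hrs, a difference of 1.17 (SE 0.22, adjusted p = 0.000228). Its RSG mean was 531.7 at 1 hr and 395.9 at 48 hrs. With DMSO alone it differed by -1 between 1 and 48 hrs (SE 0.22, adjusted p = 0.00769), though the test over all 6 times did not call it (adjusted p = 0.0821). At the other times 1427844_a_at differed by 0.40 to 0.98 and did not pass the test in the main fit. At 24 hrs it passed after quantile normalization (adjusted p = 0.0362), in a fit of only the groups compared (0.0254) and with the replicate block (0.043). The block also called it at 2 hrs (0.0465), and 1418901_at at 4 hrs (0.0499) and 7 hrs (0.0279). The replicate numbers were not taken to pair arrays in 3T3-L1. Both probe sets had a similar course, with a correlation of 0.92 over the 24 group means.

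For C3H/10T1/2 adipocytes 0 of 12 comparisons called Cebpb. The signal of 1418901_at was 953.2 to 2212.9 with RSG (median 1561) and 1170.5 to 1649.7 with DMSO (median 1306), and the arrays overlapped at all times but 1 hr. The largest difference was 0.53 for 1427844_a_at at 7 hrs (820.4, 512.5 and 583.1 with RSG, 507.9, 375.7 and 428.1 with DMSO). Its adjusted p was 0.228, and 0.00615 once the block was fitted. The RSG effect in 3T3-L1 exceeded that in C3H/10T1/2 by 0.80 (95% interval 0.27 to 1.34) for 1418901_at at 24 hrs and by 0.99 (0.36 to 1.63) for 1427844_a_at at 48 hrs, with adjusted p values of 0.257 and 0.151. The second of these passed with the block (adjusted p = 0.0123) and without 3T3-L1 DMSO replicate 3 (1.38, adjusted p = 0.0067).

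**Figure D3:**
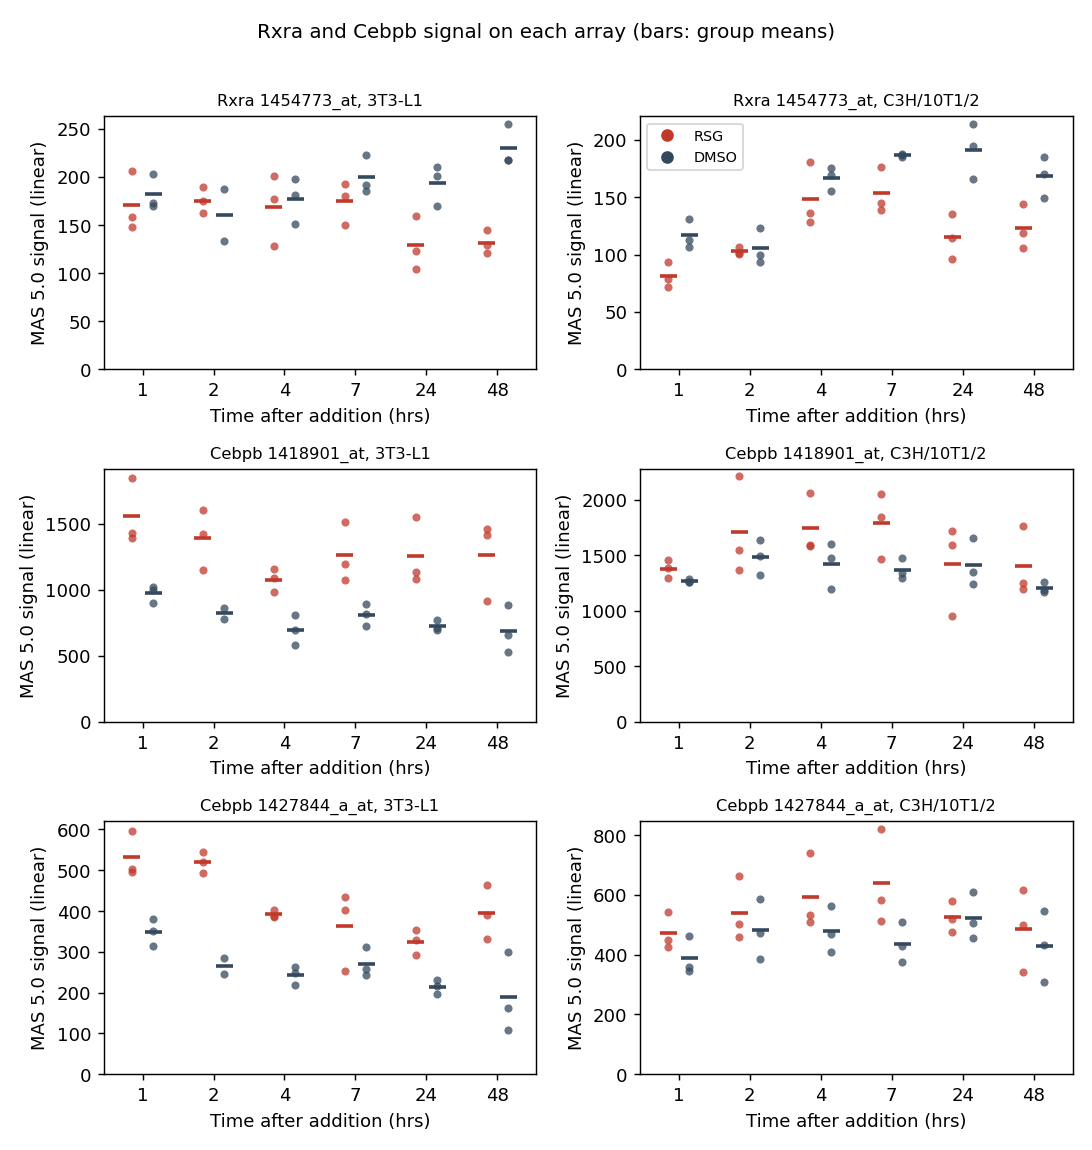
Signal of Rxra 1454773_at and of both Cebpb probe sets (linear MAS 5.0 units from 0) on each array against time in hrs, RSG left of DMSO, with a bar at the group mean. The RSG points of Rxra lie under the DMSO points of both cell types at the last 2 times, and those of Cebpb 1418901_at lie above the DMSO points at every time in 3T3-L1.

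Cebpa, the partner of PPARG in the mature fat cell, had 0 calls. Its signal with RSG in 3T3-L1 was 1430.9 to 2388.9 (median 1803), against 1089.9 to 1912.4 with DMSO (median 1489). The largest difference was at 7 hrs, with 2079.5, 1677.9 and 1916.8 with RSG and 1479.5, 1089.9 and 1335.2 with DMSO. The arrays did not overlap, as for 18.4% of all probe sets, but 0.55 (SE 0.16) gave an adjusted p of 0.0755. The C3H/10T1/2 differences were -0.08 to 0.36, with signals of 1723.6 to 3040.1 with RSG (median 2119) and 1287.8 to 2596.7 with DMSO (median 1995).

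Cebpd, the second early factor, was lower with RSG at 7 hrs in 3T3-L1. There 1423233_at read 92.9, 99.7 and 101.4 with RSG and 130.3, 250.9 and 207.1 with DMSO, a difference of -0.95 (SE 0.25, adjusted p = 0.0382). The call was lost without RSG replicate 1, 2 or 3 or without DMSO replicate 2 or 3 (adjusted p of 0.0857 to 0.269). At 4 and 24 hrs the differences were -0.57 and -0.53, which did not pass, and at 48 hrs it was 0.01. The C3H/10T1/2 value was -0.69 at 4 hrs (341.7, 466.7 and 251.6 with RSG, 702.4, 432.3 and 559.8 with DMSO), where the arrays overlapped and the adjusted p was 0.393. The second probe set, 1456605_at, had 0 calls, with differences of -0.43 to 0.41 for 3T3-L1 and -0.22 to 0.24 for C3H/10T1/2.

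Ebf1, a factor of B cells and fat cells, and Stat5a, a cytokine-activated factor, had 1 call each, and Gata2 had 0. Ebf1 1448293_at read 184.1, 165.2 and 286.3 with RSG and 347.2, 345.1 and 278.6 with DMSO in 3T3-L1 at 48 hrs. It fell by 0.65 (SE 0.19, adjusted p = 0.0187), although RSG replicate 3 lay above the lowest DMSO array, and the call was lost without RSG replicate 1 or 2 or DMSO replicate 1 or 2 (adjusted p of 0.0636 to 0.141). The other two Ebf1 probe sets differed by -0.31 and -0.39 at that time and did not pass (adjusted p = 0.304 and 0.0755), and in C3H/10T1/2 all 3 differed by -0.23 to 0.23. Gata2 1450333_a_at had 0 calls, with differences of -0.29 to 0.51 for 3T3-L1 and -0.23 to 0.23 for C3H/10T1/2. Stat5a 1450259_a_at read 118.5, 169.6 and 156.4 with RSG and 32.7, 102.1 and 98.6 with DMSO in 3T3-L1 at 48 hrs. The difference of 1.09 (SE 0.31, adjusted p = 0.0143) leaned on DMSO replicate 1, without which it was 0.55 (adjusted p = 0.234), and without RSG replicate 2 the adjusted p was 0.0658. Stat5a 1421469_a_at read 210.6, 186.8 and 216.5 with RSG and 185.3, 174 and 162.4 with DMSO, a difference of 0.23 that did not pass. At 48 hrs in C3H/10T1/2 it read 336, 313.2 and 350.4 with RSG and 239.5, 249.4 and 210.1 with DMSO, and 0.52 had an adjusted p of 0.064, or 0.011 with the replicate block, under which 1450259_a_at (0.46) had 0.0415. The C3H/10T1/2 member calls under the block numbered 2 (7 hrs) and 4 (48 hrs), while the share of all probe sets called was 6.01% and 9.43%, against 2.85% and 5.41% without it.

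Levels with DMSO alone differed between the cell types for 10 of the 14 member probe sets, no larger a share than the 77.5% of all probe sets that did. Pparg read 1273.8 to 1965.5 (3T3-L1, median 1608) and 570.7 to 1035.5 in C3H/10T1/2 (median 813.8), and no array overlapped. Cebpd 1423233_at went the other way, with 77.7 to 284.1 (3T3-L1, median 109.9) and 170.4 to 702.4 in C3H/10T1/2 (median 450.2). The mean log2 differences over the 6 times, 3T3-L1 minus C3H/10T1/2, were 1.02 for Pparg (SE 0.061), 0.87 and 0.31 for Rxra, -0.38 for Cebpa, -0.80 and -0.87 for Cebpb, -1.71 (SE 0.11) and -0.08 for Cebpd, -0.24, 0.11 and 0.38 for Ebf1, 0.45 for Gata2, and -0.41 and -0.20 for Stat5a. Those of Cebpd 1456605_at, Ebf1 1416301_a_at, Ebf1 1416302_at and Stat5a 1450259_a_at did not pass. The median of all probe sets was 0.32 higher in 3T3-L1, so the 0.31 of Rxra 1454773_at lay next to it and the 0.38 of Ebf1 and 0.45 of Gata2 just above it. After quantile normalization the median was 0.077, the share of calls that were higher in 3T3-L1 was 54.4%, against 71.1% for the values as deposited, Gata2 lost its call (0.14, adjusted p = 0.117), and Cebpd 1456605_at (-0.35, adjusted p = 0.00331) and Stat5a 1450259_a_at (-0.38, adjusted p = 0.00402) passed. The cell line, its culture and its differentiation protocol cannot be told apart. With the replicate block Stat5a 1450259_a_at (-0.23, adjusted p = 0.009) and Ebf1 1416301_a_at (-0.25, adjusted p = 0.00183) passed as well, against 79.6% of all probe sets. This block takes the spread between the replicate numbers of a cell type out of the error. A comparison of cell types needs that spread, so these p values may be too small. With the replicate number as a random block, chosen after seeing the data, the same 10 passed, against 69.6% of all.

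Some members also changed over time with DMSO alone. In 3T3-L1 adipocytes the test over 6 times called 1 of 14, Cebpd 1423233_at (adjusted p = 0.000763), against 2.24% of all probe sets. At 1 hr it read 229.7, 187 and 284.1, at 2 hrs 84.5 and 77.7, and at 4 hrs 78.5, 133.6 and 91.4. The 7 hr arrays read 130.3, 250.9 and 207.1, those of 24 hrs 109.9, 106.9 and 115.7, and those of 48 hrs 98.4, 90.8 and 90.9. The difference from 1 hr was -1.51 at 2 hrs (SE 0.28, adjusted p = 0.0434), -0.28 at 7 hrs (adjusted p = 1) and -1.30 at 48 hrs (SE 0.25, adjusted p = 0.00225). In RSG arrays of 3T3-L1 it read 232.7, 239.6 and 237.3 at 1 hr and 70.6, 99.4 and 41.1 at 2 hrs, and 92.9 to 101.4 at 7 hrs. The RSG differences at each time use these same DMSO arrays, so the 7 hr call and the DMSO time course are not separate evidence.

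In C3H/10T1/2 adipocytes 5 of 14 were called over time with DMSO, against 20.6% of all probe sets. These were Pparg (adjusted p = 0.000107), Rxra 1454773_at (7.56e-05), Cebpa (0.000498), Cebpd 1423233_at (0.00296) and Ebf1 1416302_at (0.01). Cebpa read 1576.1, 1383.3 and 1287.8 at 1 hr and 2596.7, 2352.3 and 2089.5 at 48 hrs, higher by 0.73 (SE 0.13, adjusted p = 0.000214). Cebpd 1423233_at read 341.3, 297.3 and 172.2 at 1 hr and 702.4, 432.3 and 559.8 at 4 hrs, higher by 1.09 (SE 0.28, adjusted p = 0.0147). Pparg and Rxra were 0.62 and 0.53 higher at 48 hrs than at 1 hr (adjusted p = 0.000415 and 0.0231). The RSG differences of Pparg and Rxra use these same DMSO arrays, so they and this time course are not separate evidence.

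**Figure D4:**
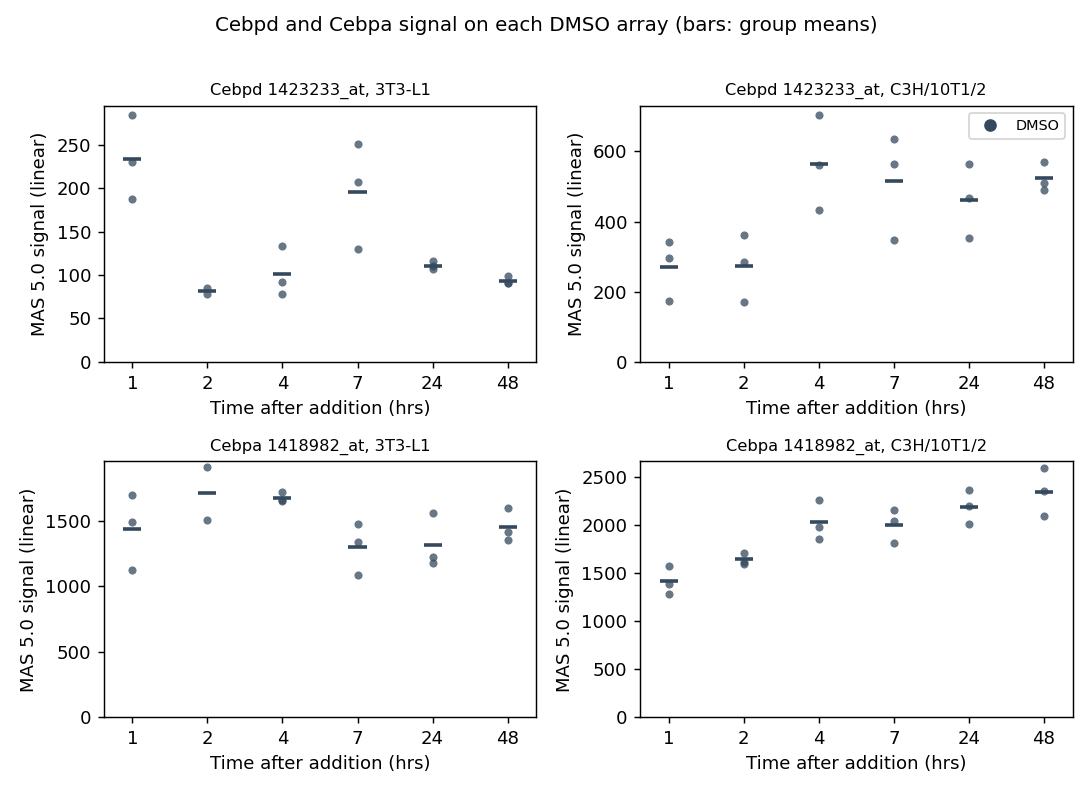
Signal of Cebpd 1423233_at and Cebpa 1418982_at (linear MAS 5.0 units from 0) on each DMSO array against time in hrs, with a bar at the group mean. Cebpd has its highest mean at 1 hr in 3T3-L1 (187 to 284.1) and its lowest at 1 and 2 hrs in C3H/10T1/2 (170.4 to 362.2). Cebpa changed over time in C3H/10T1/2 and did not pass the test in 3T3-L1 (adjusted p = 0.614), a contrast that was not itself tested.

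Genes that work with the 9 factors were counted from lists chosen with earlier results of these data known. Of 23 tested probe sets of PPARG coregulators in 3T3-L1, 2 were higher and 2 lower with RSG at 2 hrs, and 4 higher and 2 lower at 24 and at 48 hrs, against 0.172%, 11.8% and 14.3% of all probe sets. Of 20 tested for C3H/10T1/2, 2 were higher and 0 lower at 2 hrs, 2 higher and 1 lower at 24 hrs, and 1 higher and 2 lower at 48 hrs, against 0.229%, 7.72% and 5.41%. Ppargc1b, a coactivator of mitochondrial genes, averaged 422.9 with RSG and 198.5 with DMSO at 24 hrs in 3T3-L1 (1.09, SE 0.18, adjusted p = 5.19e-05) and 523.9 with RSG and 248 with DMSO in C3H/10T1/2 (1.10, SE 0.25, adjusted p = 0.00389). Cited2, which binds the coactivators CBP and p300, fell by 1.16 at 1 hr in 3T3-L1 by 1452207_at (282.2 with RSG and 629.8 with DMSO on average, SE 0.17, adjusted p = 0.000576). Among the partners and relatives of RXR and PPAR, 2 of 14 tested were higher and 1 lower at 24 hrs in 3T3-L1, and 2 of 13 were higher and 0 lower in C3H/10T1/2. Ppara, the PPAR of fatty acid burning tissues, averaged 30.2 with RSG at 24 hrs in 3T3-L1 and 64.9 in C3H/10T1/2, and its DMSO means of 5.17 and 6.57 lay under the presence level (adjusted p = 0.00601 and 0.000349). Thra, a thyroid hormone receptor, fell by 1.17 at 48 hrs in 3T3-L1 by 1454675_at (SE 0.18, adjusted p = 2.63e-05), and Esrra rose by 0.74 at 24 hrs (SE 0.14, adjusted p = 0.000374).

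The other lists of regulators were counted in the same way, and at 24 hrs the background (3T3-L1 11.8%, C3H/10T1/2 7.72%) lay near the shares of the next 2 lists. Of 29 tested probe sets of EBF, GATA and STAT relatives in 3T3-L1, 0 were higher and 4 lower at 24 hrs, among them Socs3 (2 probe sets, -1.37 and -1.25) and Zfpm2 (-1.20), and in C3H/10T1/2 1 of 24 was higher (Ebf3, 0.55) and 1 lower (Stat3, -0.50). Of 46 tested for other regulators of adipogenesis in 3T3-L1, 2 were higher and 4 lower at 24 hrs, and of 41 in C3H/10T1/2, 1 was higher and 3 lower. The higher ones were all of Lpin1 (0.85 and 0.58 in 3T3-L1, 0.58 in C3H/10T1/2). At 48 hrs 0 were higher and 4 lower in 3T3-L1, and 0 higher and 2 lower in C3H/10T1/2. The share of all probe sets called at 48 hrs was 14.3% and 5.41%. Klf15, a factor of fat cell formation, fell by 0.82 at 48 hrs in 3T3-L1 (SE 0.22, adjusted p = 0.00807) and fell by 1.48 in C3H/10T1/2 (SE 0.22, adjusted p = 4.65e-05). Of the C/EBP relatives 1 of 4 tested was called, Cebpg, higher by 0.33 at 24 hrs in 3T3-L1 (adjusted p = 0.0428).

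Many target genes of PPARG were higher with RSG. Of 32 tested probe sets in 3T3-L1, 3 were higher at 2 hrs, 7 at 7 hrs, 18 at 24 hrs and later 15 (48 hrs), with 0 lower at these times. Of 33 in C3H/10T1/2, 3, 11, 7 and 10 were higher and 0 lower. The share of all probe sets called at these times was 0.172%, 2.04%, 11.8% and 14.3% in 3T3-L1. In C3H/10T1/2 it was 0.229%, 2.85%, 7.72% and 5.41%. This list too was chosen with earlier results of these data known. Their median difference was 0.67 at 24 hrs in 3T3-L1 and 0.35 in C3H/10T1/2, against -0.012 and -0.07 over all probe sets. Fabp4, the fatty acid carrier of fat cells, averaged 460.1 with RSG and 77.7 with DMSO at 2 hrs in 3T3-L1 by 1424155_at (2.37, SE 0.43, adjusted p = 0.00527). By 1425809_at the difference was smaller, with 331.1 with RSG and 107.2 with DMSO (1.61, SE 0.28, adjusted p = 0.00315). Fabp4 was not called at 2 hrs in C3H/10T1/2. Pck1, a gene of glycerol synthesis in fat cells, averaged 363.2 with RSG and 133.9 with DMSO at 2 hrs in C3H/10T1/2 (1.48, SE 0.16, adjusted p = 1.87e-06).

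Some markers of preadipocytes and fibroblasts were lower with RSG at the times of the late calls. Of 18 tested preadipocyte and fibroblast probe sets in 3T3-L1, 6 (24 hrs) and 10 (48 hrs) were lower with RSG, with medians of -0.58 and -0.74, and of 17 in C3H/10T1/2, 6 and 5 were lower, with medians of -0.56 and -0.37. The share of all probe sets called at 24 and 48 hrs was 11.8% and 14.3% (3T3-L1) and 7.72% and 5.41% (C3H/10T1/2). The summed signal of this list over all times was 14590 to 26510 with RSG and 19520 to 28140 with DMSO in 3T3-L1, and 12210 to 18730 with RSG and 14590 to 20210 with DMSO in C3H/10T1/2. Of its 10 genes only Cd34 had a median under the presence level, in C3H/10T1/2 and in 3T3-L1 with DMSO. At 2 and 7 hrs 0 of these probe sets were called, where the background was 0.172% and 2.04% (3T3-L1) and 0.229% and 2.85% (C3H/10T1/2). At 7 hrs their medians were already -0.31 (3T3-L1) and -0.23 (C3H/10T1/2), against -0.054 and -0.067 over all probe sets. The adipocyte list had 5 (24 hrs) and 4 (48 hrs) of 17 higher for 3T3-L1 and 2 each time for C3H/10T1/2, and 7 of its 12 genes are also on the target list. The same shares of all probe sets apply, and the C3H/10T1/2 count at 24 hrs lay near its share. The macrophage, skeletal muscle and endothelial lists had 0 calls at any time, and the osteoblast and chondrocyte list had only Sox9 called. Its means were 4.67 with RSG and 25.6 with DMSO at 24 hrs and 3.3 with RSG and 32.1 with DMSO at 48 hrs in 3T3-L1, and 1.5 with RSG and 14.7 with DMSO at 24 hrs in C3H/10T1/2. All but the 3T3-L1 DMSO means lay under the presence level, so no fold is given. The part of the markers that moved in the late differences of Rxra, Cebpb, Ebf1 and Stat5a was not tested, and in these bulk samples fewer cells of a type and less RNA per cell cannot be told apart.

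Genes with the courses most like those of the members were found by the correlation of 24 group means of log2 signal after removal of each cell type's mean. The nearest to Pparg were Cxxc5 (0.88) and Nfic (0.85), to Rxra Tmem159 (0.90) and Bid (0.89), and to Cebpa Slc35b4 (0.81) and Rad51d (0.80). Those nearest to Cebpb were Angptl4 (0.88), a PPARG target that codes for an inhibitor of lipoprotein lipase, and Id3 (0.80). Cebpd was nearest to Socs3 (0.91), an inhibitor of cytokine signaling, and Map2k3os (0.82), Ebf1 to Sppl3 (0.85) and Nek7 (0.80), Gata2 to Zdhhc14 (0.74) and Efna2 (0.72), and Stat5a to Slc22a5 (0.79) and Cblc (0.73). The group means share arrays, treatments and times, so these are descriptions of likeness only.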

How the data were processed

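The authors deposited MAS 5.0 signal intensities of 71 mouse Affymetrix arrays, linear and captured in GCOS, in 1 table. Each column header was the identifier of 1 sample, and the sample titles gave the groups and replicate numbers (0 columns were left unmatched). The 64 control probe sets were removed, which left 22626. The platform annotation gave 20380 of these 1 gene, 691 several and 1555 none. Testing in a cell type needed 1 or more group means at the presence level of 19.9 (95th percentile of the signals of 27 bacterial controls), and 132 values of 0 were set to 0.1 before log2. limma 3.58.1 in R 4.3.3 fitted the 12 groups of a cell type together (lmFit, eBayes with a trend on intensity). Differences between cell types came from 1 fit of all 24 groups. P values were adjusted by Benjamini-Hochberg over all tested probe sets, 18028 in 3T3-L1, 16123 in C3H/10T1/2 and 18274 in the joint fit. The code was checked on simulated data. Figures were drawn with matplotlib 3.10.9.

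The arrays of a group came from separate batches of cells, so the spread covers batches of 1 cell line, and their small number limits the precision. The replicate number was taken to pair arrays in C3H/10T1/2. There the RSG and DMSO arrays of 1 number and time deviated together in 18 of 18 pairs of arrays (correlations of 0.132 to 0.307). The deviations within a group cancel out, so the pairs of 1 time are not independent. The number was not taken to pair arrays in 3T3-L1, where 14 of 17 passed 0.1 (0.019 to 0.261), though the lowest was still positive and the 2 ranges overlap. The main fits used no block in either cell type, so their p values ignore any pairing. Results with the block are given as an alternative. All members were named with all their probe sets. From related lists, at most the 3 largest called changes per comparison were named, and for each member's brightest tested probe set the 2 most correlated genes. The members and lists were chosen with earlier results of these data known. Alternatives were no trend, a floor at the presence level, no filter, quantile normalization, the replicate block, a fit of only the groups compared, the methods' test (a linear model on log10 signal with an unadjusted p and a 1.2-fold minimum) and each replicate left out.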

Additional observations from a re-analysis of the deposited data

How the results depend on the processing

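In the fits of RSG against DMSO, 308 of 360 single probe set results kept their direction and side of the threshold over the alternatives that left out no array, 40 passed the threshold in addition and 12 lost it. Most of the 40 came with the methods' test, which calls on an unadjusted p, and most of the others with the replicate block. The cause of single changes was not tested. Without the trend, 3T3-L1 had 1 member call at 7 hrs and C3H/10T1/2 had 0 at 7 hrs (1.66% and 2.57% of all probe sets). Quantile normalization gave 1 at 7 hrs in 3T3-L1 (1.9% of all). It also gave 1 member whose RSG effect differed between the cell types at 4 hrs and 1 at 24 hrs (0.0109% and 0.421% of all). This was Pparg both times (-1.05, adjusted p = 0.0084, and -0.83, adjusted p = 0.0194). Fitting only the groups compared gave 0 (2 hrs) and 1 (7 hrs) in 3T3-L1 (0.0222% and 1.04% of all) and 0 at both times in C3H/10T1/2 (0.124% and 0.875% of all). In 3T3-L1 it also ended the calls of Rxra at 24 hrs (adjusted p = 0.0758) and of Ebf1 and Stat5a at 48 hrs (0.111 and 0.127). The methods' test, unadjusted, called 2, 3, 4, 5 and 7 from 1 to 24 hrs in 3T3-L1 (4.14%, 4.29%, 6.78%, 11.8% and 22.8% of all probe sets) and 2, 3, 3, 2, 3 and 3 from 1 to 48 hrs in C3H/10T1/2 (3.08%, 3.98%, 7.94%, 14.4%, 19.3% and 15.6% of all). With adjustment it called 1 at 7 hrs in 3T3-L1 (1.94% of all).

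With the replicate block the member calls in 3T3-L1 were 2, 2, 4 and 6 at 2, 4, 7 and 24 hrs (0.25%, 1.22%, 3.74% and 15.5% of all probe sets). There 14 of 17 pairs of arrays with the same number correlated above 0.1, and whether the number marks a batch is not stated. Cebpa passed at 7 and 24 hrs (adjusted p = 0.00366 and 0.00884). In C3H/10T1/2 the block gave 2 at 7 hrs and 4 at 48 hrs (6.01% and 9.43% of all). It gave 1 RSG effect that differed between cell types at 4, 24 and 48 hrs (0.0164%, 0.897% and 2.14% of all), Pparg (adjusted p = 0.00415 and 0.0111) and Cebpb 1427844_a_at (0.0123). It also gave 4 changes over time with DMSO in 3T3-L1, for which the share of all probe sets was not counted.

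With 1 replicate left out (at 2 hrs in 3T3-L1 an RSG replicate), the member calls from 1 to 48 hrs ranged 0 to 0, 0 to 1, 1 to 1, 1 to 2, 2 to 3 and 4 to 6 (3T3-L1), and 0 to 0, 1 to 1, 0 to 0, 0 to 0, 1 to 1 and 1 to 2 (C3H/10T1/2). The share of all probe sets called ranged 0.0444% to 0.0666%, 0.133% to 0.144%, 0.416% to 0.616%, 0.81% to 1.45%, 7.48% to 10.9% and 10.5% to 13.5% in 3T3-L1. In C3H/10T1/2 it ranged 0.0248% to 0.0558%, 0.174% to 0.217%, 0.341% to 0.608%, 1.59% to 2.35%, 4.61% to 6.25% and 3.97% to 4.56%. Changes over time with DMSO ranged 1 to 2 (3T3-L1) and 4 to 4 (C3H/10T1/2), and DMSO levels that differed between cell types 11 to 12. Differences of RSG effects were 0 to 0 from 1 to 7 hrs and 0 to 1 at 24 and 48 hrs. For the changes over time, the DMSO levels and the differences of RSG effects, the share of all probe sets called with a replicate left out was not counted. Without replicate 1 the DMSO level differences of Cebpd 1456605_at (0.13, adjusted p = 0.301) and Stat5a 1450259_a_at (0.14, adjusted p = 0.259) changed sign (ranges -0.29 to 0.13 and -0.41 to 0.14 over the replicates left out), and neither passed the test with all arrays. Ppard and Gata2 1428816_a_at lay too near the background signal to be compared.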
